A study of Mus musculus with 3 samples.

Results

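Among the cells that the study kept as enteric neurons of the Ednrb-/- small intestine, a group was found whose transcripts come from both glial and neuronal genes. A cell was counted as a member when it held at least 1 UMI (unique molecular identifier, 1 captured RNA molecule) of Sox10 and at least 1 UMI of 3 or more of the 7 genes Gjc3, Kcna1, Art3, Pou3f1, Sfrp5, Sfrp1 and Matn2. This rule found 336 of the 2060 deposited cells, or 16.3% (95% exact binomial interval 14.7 to 18.0, counting error only). Mouse 1 gave 42 of 354 cells (11.9%), mouse 2 gave 208 of 1050 (19.8%) and mouse 3 gave 86 of 656 (13.1%), a mean of 14.9% ± 4.27 (SD, n = 3 mice). Single-cell RNA-seq libraries, 1 per animal, were made with 10x Chromium v3.1 kits from 3 individual mice at postnatal day 14. All 3 are homozygous for the Ednrb-null allele of a B6;129 line, which the labels list under strain C57BL/6 and genotype Ednrb-KO, as a model of Hirschsprung disease. All also carry Wnt1-Cre and the Cre-dependent GCaMP5-tdT reporter, so that every cell descended from a Wnt1-expressing neural crest cell, neuron, glial cell or Schwann cell alike, can carry tdTomato. The LMMP (longitudinal muscle and myenteric plexus) was stripped from the whole small intestine, tdTomato-positive cells were sorted, and the authors then kept the cells of neuronal clusters, so glial cells outside those clusters were not analysed here, nor were the wild-type mice. There is 1 condition, and every comparison below is between member cells and all other cells of the same mouse.

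Enteric glia and enteric neurons both descend from the neural crest. SOX10 is a transcription factor of crest progenitors that glia keep and that neurons lose as they mature, and connexins, potassium channels and myelin proteins are among the products of SOX10-positive Schwann cells and glia elsewhere in the body. Glia-like cells of the gut can also give rise to neurons, so cells on the way from one state to the other may hold transcripts of both. A pair of cells caught in the same droplet, or free RNA of one cell type in the droplet of another, gives such a mixture too, so depth is reported beside the levels.

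Mouse 1 stood apart from mice 2 and 3. Its member and other cells had medians of 4033 and 3686.5 UMIs, against 8948 to 12442 in mice 2 and 3, and of its 354 cells 230 formed a cluster without any cell of the other mice. Its values are therefore given separately for many results. Other results, among them some mean log2 ratios and detection shares, are given only over all mice, with mouse 1 included. The symbols also differed, since 2014 genes with UMIs in mice 2 and 3 had none in mouse 1, and 1199 had UMIs in mouse 1 alone. Barcodes shared between libraries numbered 1 for mice 1 and 2, 0 for mice 1 and 3 and 1 for mice 2 and 3, and 1 member cell carried such a barcode. Transcripts of Ednrb, the gene disrupted in these mice, were read in all 3 libraries. It lies on chromosome 14 at 103814625 to 103844402 (GRCm38, minus strand). Its UMIs are summed over the transcript and do not check the genotype.

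The label of cells that share glial and neuronal genes held for mice 2 and 3 and only in part for mouse 1. Cells were thinned at random to 3000 UMIs, which removes differences in depth, and the 20 neuronal markers of a list (Tubb3, Snap25, Elavl4, Hand2 and others) were counted in each cell. The median member cell held 6, 10 and 9 of the 20 markers in mice 1, 2 and 3, and the median other cell 12, 11 and 11. Cells under 3000 UMIs were left out, among them 10, 3 and 0 member cells of these mice. Unthinned, the median over all 42 member cells of mouse 1 was 4, against 13 in its other cells. In mouse 1, 15 of the 32 member cells deep enough for this count had 3 markers or fewer. In mouse 2 this was true of 6 of 205 and in mouse 3 of 2 of 86. A part of the members of mice 2 and 3 was nearer to those of mouse 1. The 17 and 12 members in cluster 2 (clusters are described below) had medians of 5 and 6 markers, and 4 and 1 of them had 3 or fewer. Of the 20 glial genes in a second list, which holds none of the 8 genes of the rule, the median member cell had 10, 9 and 9 and the median other cell 4.5, 5 and 4. The member cells of mouse 1 are therefore called by their rule and not by the label.

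**Figure D1:**
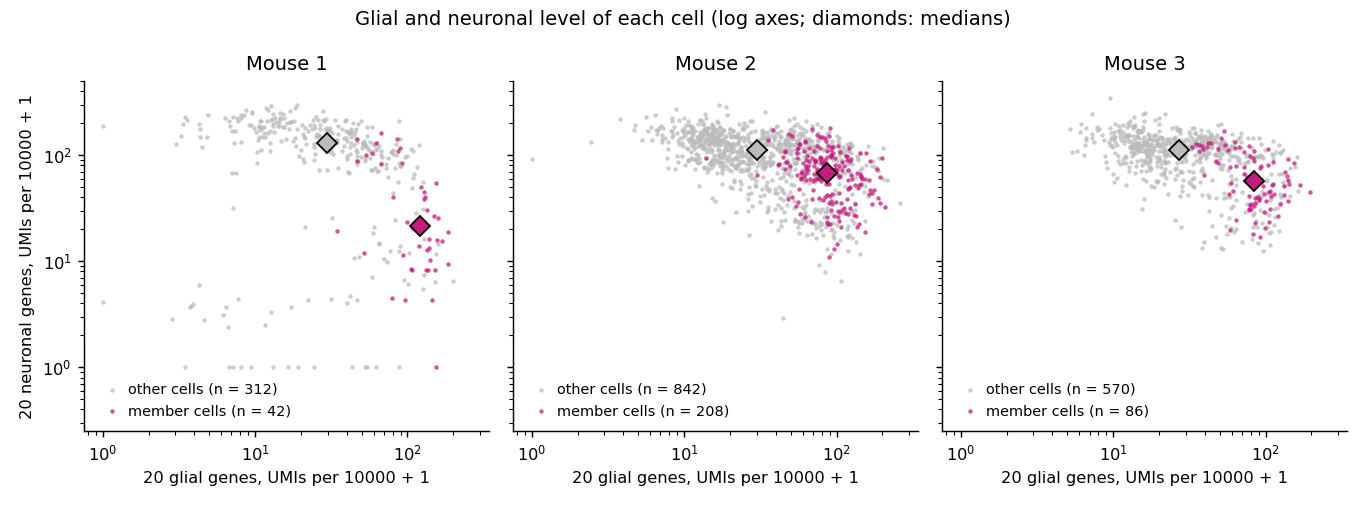
Each point is 1 cell, with the summed level of 20 glial genes on the x axis and of 20 neuronal genes on the y axis (both UMIs per 10000 UMIs of the cell plus 1, log axes), in 1 panel per mouse. Member cells lie to the right of most other cells in every mouse, and their medians (diamonds) lie below those of the other cells, by far most in mouse 1, where the neuronal medians are 20.3 and 128 UMIs per 10000.

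The members were chosen by their detected UMIs of Sox10 and the 7 genes, and those values are given first, as a description. Over all 336 members, Gjc3, which encodes a connexin, was detected in 87.2%, and Matn2, an adaptor protein of the extracellular matrix, in 82.4%. Sfrp1 and Sfrp5, secreted inhibitors of Wnt ligands, were detected in 54.8% and 44.9%. Kcna1, a voltage-gated potassium channel, was in 53.3%, Art3, an ADP-ribosyltransferase family member, in 45.8%, and Pou3f1, a transcription factor of Schwann cells on their way to myelination, in 42%. In the other cells these 7 genes were in 5.05% to 19.2% and Sox10 in 43.6%. The member cells were not a uniform class by the rule, since 123 held 3 of the 7 genes, 105 held 4, 63 held 5, 40 held 6 and 5 held all 7. Another 45 cells, 17, 22 and 6 in mice 1, 2 and 3, held 3 or more of the 7 genes without a UMI of Sox10 and were not counted.

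Levels below are means over cells of a gene's UMIs per 10000 in the cell. Sox10 (chromosome 15, 79154908 to 79165240, minus strand) was at 6.37, 3.26 and 3.36 in member cells of mice 1, 2 and 3 and at 1.46, 1.0 and 1.23 in the other cells. Gjc3 (chromosome 5, 137953461 to 137963098, minus strand) was at 3.53, 2.13 and 2.03 against 0.611, 0.445 and 0.283. Pou3f1 (chromosome 4, 124656807 to 124660655) was at 2.10, 0.785 and 0.974 against 0.207, 0.0886 and 0.0676. The rule fixes the direction of these differences. At the threshold, Sox10-positive cells with 3 of the 7 genes, the members nearest to it, held Gjc3 in 85.0%, 77.8% and 75% of cells and Sox10 at 6.24, 3.08 and 3.53 UMIs per 10000. Those with 2 of the 7 genes, just outside, held Gjc3 in 52.2%, 56.2% and 68.7% and Sox10 at 5.11, 2.71 and 3.42.

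Promoter sequences were available here for 3 of the 8 genes of the rule, Gjc3, Sfrp5 and Art3 (with 3 start sites), from RefSeq on GRCm38.p6. They were searched on both strands, in the 250 bases before and the 50 after each start, for AACAAT and AACAAAG, words of the kind that SOX factors bind, because Sox10 defines the members. The 2 words do not overlap as written. Of the 5 promoters, 1 held a match, at the third start of Art3, where AACAAAG lies on the minus strand 43 bases before the start. The 250 bases upstream of that start (chr5:92387884-92388133, plus strand) and of Gjc3 (chr5:137963099-137963348, minus strand), the gene found in most members, are shown, with the match in capitals and no capitals where there is none.
Art3, start with the match: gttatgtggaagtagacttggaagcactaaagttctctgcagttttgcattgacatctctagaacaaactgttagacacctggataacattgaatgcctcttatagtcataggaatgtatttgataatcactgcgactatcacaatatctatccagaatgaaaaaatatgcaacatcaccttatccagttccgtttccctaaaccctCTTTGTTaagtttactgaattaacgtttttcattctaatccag
Gjc3: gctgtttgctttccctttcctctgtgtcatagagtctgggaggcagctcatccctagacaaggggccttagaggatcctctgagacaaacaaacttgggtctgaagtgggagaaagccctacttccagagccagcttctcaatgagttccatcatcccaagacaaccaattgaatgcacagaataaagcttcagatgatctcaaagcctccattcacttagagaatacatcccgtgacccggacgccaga
Of all 32851 promoters in the table, 10.7% held the first word, 5.85% the second and 15.7% either. Among the 168 promoters of 129 further genes that were higher in member cells (below) 8.33% held either word, and among 13 promoters of 12 lower genes none did. These are matches of letters, and nothing about SOX10 follows from them.

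Glial genes beyond the rule were higher in the member cells of all 3 mice. A gene was counted as higher when its mean level was at least 2-fold that of the other cells in each of the 3 mice, on levels plus a pseudocount of 0.01, among the 8617 genes found in at least 5% of all cells of every mouse. By this measure 185 genes were higher, 2.15% of those compared, and 8 of them are the genes of the rule. Of the 17 glial genes that could be compared, 13 were higher, and 16 were above the other cells in every mouse, with medians of the log2 ratio of 1.69, 1.29 and 1.48 in mice 1, 2 and 3 against −0.05, −0.03 and −0.08 over all genes compared. Because the 8 genes and the glial genes were read in the same cells, these ratios describe the members and are no test.

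Erbb3, a receptor for neuregulins on which crest-derived glia depend, was at 3.55, 1.59 and 1.97 UMIs per 10000 in member cells and at 0.855, 0.578 and 0.547 in the other cells of mice 1, 2 and 3 (mean log2 ratio 1.77 ± 0.31, SD, n = 3). Lpar1, a receptor for lysophosphatidic acid, was at 4.12, 2.53 and 2.26 against 1.13, 0.784 and 0.681 (1.75 ± 0.09). For both, every member value lay above every value of the other cells. S100b, a calcium-binding protein by which enteric glia are commonly recognised, was at 2.56, 2.36 and 2.59 against 1.0, 0.963 and 0.905 (1.38 ± 0.11). Sox6, a transcription factor, had a ratio of 1.72 ± 0.51. Ptprz1, a receptor phosphatase of glial precursors, had 0.72 ± 0.40 and missed the fold in mice 2 and 3. It was not the lowest, since 1 of the 17 genes was below the other cells in all 3 mice. Gfap, Egfr and Col28a1 were in too few cells to be compared.

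Myelin genes of Schwann cells were present to a smaller extent. Of the 17 in the list 5 could be compared, of which 3 were higher. Mal, a proteolipid of compact myelin, was at 0.826, 0.577 and 0.444 UMIs per 10000 in member cells and 0.120, 0.0582 and 0.0913 in the other cells, a mean log2 ratio of 2.65 ± 0.47 (SD, n = 3). Cnp and Plekhb1 were at 1.27 ± 0.15 and 1.30 ± 0.17. Mbp, at 0.98 ± 0.54, was past the fold in mice 1 and 2 only, and the myelin genes Prx, Ncmap and Ugt8a had no UMI in the member cells of mouse 1.

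Genes of glial support functions were split. Among 16 compared, 5 were higher. Sparc, a secreted matrix regulator, was at 42.8, 34.7 and 30.6 UMIs per 10000 in member cells and 15, 11.5 and 9.86 in the other cells (1.58 ± 0.06, SD, n = 3). Vim, the intermediate filament vimentin, was at 16, 20.6 and 22 against 6.09, 7.23 and 6.73 (1.54 ± 0.16). Gpm6b, a proteolipid, and Timp3, an inhibitor of matrix proteases, followed at 1.51 and 1.11. Clu, Aldoc and Cpe, also in the list, were below the other cells in all 3 mice, at −1.62 ± 1.05, −1.09 ± 0.52 and −1.06 ± 0.86. Besides Gjc3, the connexin gene Gja1 was the only 1 of 5 gap junction genes past the fold (1.56 ± 0.45), and besides Kcna1 the channel gene Kcna2, which forms channels with it, was the only 1 of 14 potassium channel genes (1.63 ± 0.33), with levels of 1.87, 1.46 and 1.28 against 0.780, 0.400 and 0.366. Of 14 Wnt genes outside the rule only Tcf7l1, a transcription factor of the pathway, was higher, at 0.414, 0.140 and 0.185 UMIs per 10000 against 0.163, 0.0544 and 0.0557, and its direction turned when cells were thinned to 3000 UMIs (−2.95, mouse 2 alone).

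Matrix genes made up a larger part. Of 20 compared, 9 were higher and none lower, and their median log2 ratios were 1.36, 1.12 and 1.10 in mice 1, 2 and 3. Tnc, tenascin C, was at 3.14, 1.18 and 1.52 UMIs per 10000 in member cells and 0.677, 0.311 and 0.484 in the other cells (1.91 ± 0.28, SD, n = 3). Postn, periostin, was at 7.54, 3.47 and 3.88 against 2.90, 0.863 and 0.938, so that the value of the other cells of mouse 1 came close to those of the member cells of mice 2 and 3. Lamb1, Lama4 and Lamc1, chains that form a laminin of basement membranes together, were all higher, at 1.48, 1.43 and 1.41. Tnr, tenascin R, had −1.27 ± 0.36, past 2-fold in mice 2 and 3 only. A list of 10 fibroblast markers moved with these genes. Its mean summed level was 19.5, 6.68 and 8.10 UMIs per 10000 in member cells and 14.4, 2.83 and 2.33 in the other cells, with single member cells between 0 and 231. Within it the collagen genes Col3a1, Col1a2 and Col1a1 were above the other cells in all mice, at 1.35, 1.15 and 1.0. Dcn, of the same list, was at 0.0812, 0.160 and 0.0748 UMIs per 10000 in member cells and 0.791, 0.117 and 0.110 in the other cells. It was thus above the other cells in mouse 2 only. Pdgfra had no UMI in the member cells of mouse 3, and Adamdec1 had none anywhere. The part of fibroblast RNA in the matrix result was not tested.

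**Figure D2:**
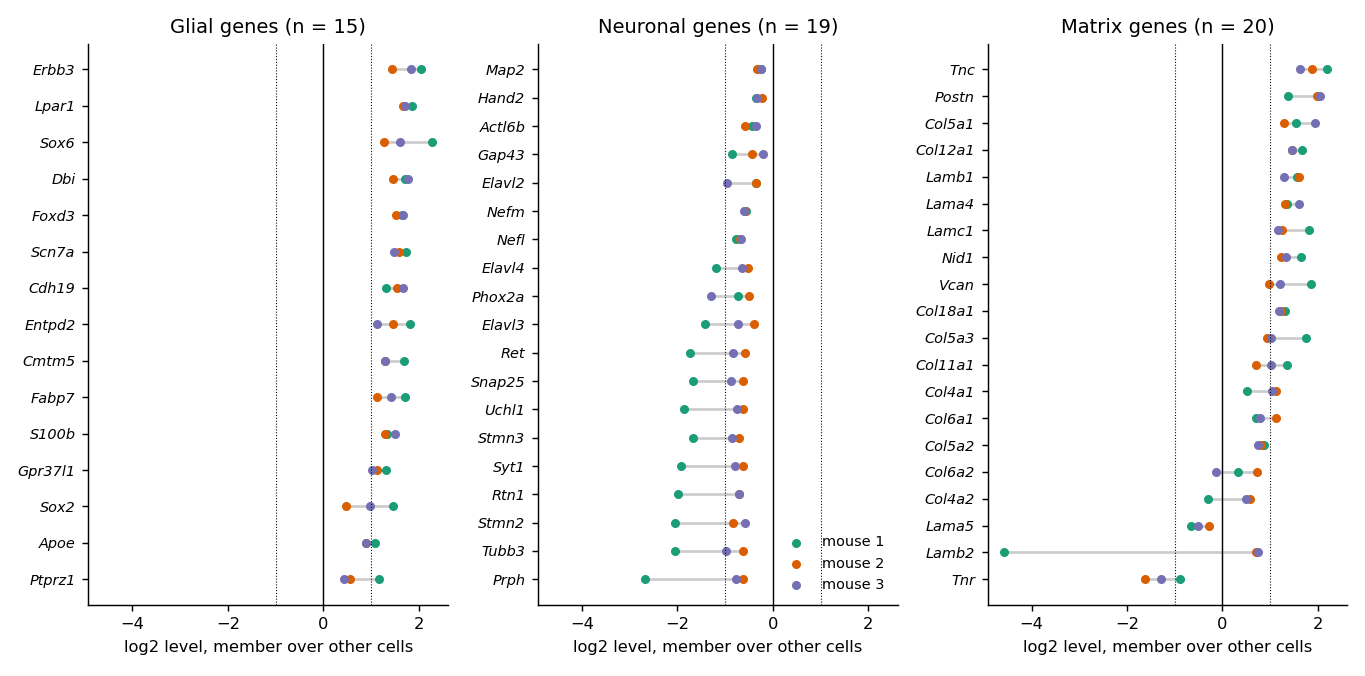
Log2 ratio of the mean level in member cells over that in the other cells of the same mouse (level plus 0.01), for glial, neuronal and matrix genes of the lists that could be compared (15, 19 and 20 genes drawn), with 1 point per mouse, a grey line over their range and dotted lines at 2-fold. Of the 17 glial genes compared, the 15 drawn lie right of 0 in all mice and the 1 that lies left of 0 in all is not drawn, the 19 neuronal genes drawn lie left of 0, Prph and Tubb3 farthest and in mouse 1, and Lamb2, with no UMI in the member cells of mouse 1, depends on the pseudocount there.

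Neuronal genes were read in the member cells at levels below those of the other cells. All 20 genes of the neuronal list were below the other cells in each of the 3 mice, and none was past 2-fold in all. A gene was counted as lower by the same measure as above, which 18 of the 8617 genes met (0.209%). The medians of the log2 ratio were −1.31, −0.58 and −0.72 in mice 1, 2 and 3. In mice 2 and 3 alone, 10532 genes could be compared, 250 were higher (2.37%) and 47 lower (0.446%), and again none of the 20 neuronal genes was among the lower. By the mean over the mice the differences were largest for Prph and Tubb3. Prph, the intermediate filament peripherin, was at 1.41, 3.26 and 2.97 UMIs per 10000 in member cells and 9.08, 5.01 and 5.12 in the other cells, and Tubb3, the neuronal beta-tubulin, at 1.26, 2.86 and 1.86 against 5.22, 4.40 and 3.68. For both, the member cells of every mouse lay below all values of the other cells. Their mean log2 ratios, −1.36 ± 1.14 and −1.21 ± 0.74 (SD, n = 3), were carried by mouse 1, and mice 2 and 3 gave −0.62 and −0.78 for Prph and −0.62 and −0.98 for Tubb3.

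The smallest differences were those of Map2 and Hand2. Hand2, needed for the differentiation of enteric neurons, was at 2.99, 4.45 and 3.95 UMIs per 10000 in member cells and 3.83, 5.22 and 4.98 in the other cells (−0.31 ± 0.07, SD, n = 3), and the values of the groups overlap. Map2, a microtubule-associated protein of dendrites, had the smallest ratio, −0.27 ± 0.04. Synaptic vesicle genes were below the other cells as well, 18 of 19 compared in all 3 mice, with none past the fold in all. Slc18a3, the vesicular acetylcholine transporter, was at 0.0855, 0.583 and 0.745 UMIs per 10000 against 0.942, 1.11 and 1.45. Slc18a2, the vesicular monoamine transporter, was the exception, at 0.946, 0.851 and 0.780 against 0.941, 0.888 and 0.921.

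The share of member cells with a neuronal transcript depends on depth. Tubb3 was detected in 26.2%, 78.8% and 74.4% of member cells of mice 1, 2 and 3, at median depths of 4033, 12442 and 11645 UMIs, and in 63.5%, 80.4% and 77.7% of the other cells, at 3686.5, 8948 and 9230 UMIs. Thinned to 3000 UMIs the shares were 28.1%, 50.7% and 37.2% in member cells and 61.9%, 62.7% and 56.0% in the other cells. Tubb3 was also in 18.8% of the thinned smooth muscle-like cells of mouse 1, which have a median of 3488.5 UMIs. The median cell of these 48 held 1 neuronal marker and 35 held 3 or fewer, but 10 held 10 or more. The 18.8% is therefore not a clean measure of free RNA, and whether it came from those 10 cells was not tested. In mouse 1 the member share, 9 of 32 cells, was nearer to that of the smooth muscle-like cells than to that of the other cells. In mice 2 and 3 the member share was higher, although these mice have 4 and 2 smooth muscle-like cells, too few for a comparison of their own. In mouse 1 Sox10 itself was in 32.8% of 58 smooth muscle-like cells and 34.0% of all cells outside the members, so its detection is not particular to the members there. S100b was in 56.2%, 46.3% and 53.5% of the thinned member cells, 23.4%, 22.8% and 18.5% of the thinned other cells and 16.7% of the thinned smooth muscle-like cells.

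Glial and neuronal transcripts were found in the same cell. S100b and Tubb3, a pair chosen after values of both were seen, were detected together in 4 of 42, 136 of 208 and 56 of 86 member cells of mice 1, 2 and 3 (9.52%, 65.4% and 65.1%) and in 18.3%, 29.5% and 28.1% of the other cells. After thinning these were 4 of 32, 44 of 205 and 17 of 86 member cells (21.5% and 19.8% in mice 2 and 3) and 13.9%, 12.7% and 9.14% of the other cells. The member share was above that of the other cells in mice 2 and 3 and below it in mouse 1, at full depth and thinned. S100b alone was in a larger share of member cells than of other cells in every mouse. Whether the pair occurred more often than the shares of the single genes give was not tested.

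Transmitter genes were those of several neuron classes. Nos1, the nitric oxide synthase of inhibitory motor neurons, was detected in 26.2%, 54.8% and 52.3% of member cells and in 39.4%, 54.4% and 55.1% of the other cells. Thinned, mice 2 and 3 had 38.5% and 39.5% against 40.5% and 40.0%. Chat, which makes acetylcholine, was detected in 1 of 42, 37 of 208 and 12 of 86 member cells, and thinned in 5.85% and 4.65% of those of mice 2 and 3 against 7.72% and 15.4% of the other cells. In the smooth muscle-like cells of mouse 1 Nos1 was in 13.8% and Chat in 1.72%. Member cells with Nos1 and no Chat numbered 11, 105 and 41, those with Chat and no Nos1 1, 28 and 8, and those with both 0, 9 and 4. With 42 cells, a count of 0 still allows up to 7.14%. By level none of 19 subtype genes was past the fold in all mice. The level of Gfra1, the GDNF receptor subunit, was above the other cells in every mouse, at 6.65, 3.49 and 2.70 UMIs per 10000 against 2.61, 1.85 and 1.74 (0.96 ± 0.36, SD, n = 3), as was that of Gfra2, the neurturin receptor subunit (0.70 ± 0.18). Vip and Gal, peptides of inhibitory neurons, had mean log2 ratios of −1.39 ± 0.75 and −1.38 ± 0.84. Thinned, Vip was in 6.25%, 36.6% and 32.6% of member cells of mice 1, 2 and 3. In the other cells it was in 28.3%, 41.4% and 37.0%. Over the subtype genes compared, the median log2 ratios were −2.03, −0.59 and −0.65, lowest in mouse 1.

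Of 11 genes of neurogenesis compared, 7 were below the other cells in all 3 mice and 1 above in all, with median log2 ratios of −0.33, −0.59 and −0.59. Past 2-fold in all mice was 1, Mfng, a fringe glycosyltransferase that modifies Notch receptors, at 0.0278, 0.262 and 0.111 UMIs per 10000 in member cells and 0.155, 0.626 and 0.374 in the other cells (−1.67 ± 0.45, SD, n = 3). Tubb2b was at −1.22 ± 0.89, Sox4 at 0.66 ± 0.59, and Stmn1 and Mdk, markers of immature neurons, differed by −0.02 ± 0.02 and −0.01 ± 0.05. Among 11 genes of the Notch pathway, which keeps progenitors from becoming neurons, 2 were higher. Hes1, a repressor induced by Notch, was at 2.27, 1.04 and 1.63 UMIs per 10000 against 0.864, 0.377 and 0.538 (1.47 ± 0.10), and Heyl, another such repressor, at 1.11, 0.523 and 0.390 against 0.208, 0.192 and 0.150 (1.69 ± 0.58). The receptor gene Notch1 had 2.81, 1.22 and 0.57 in mice 1, 2 and 3 and missed the fold in mouse 3, and the ligand gene Jag2 was below the other cells at −1.23 ± 0.42. No cell cycle gene of 11 compared was past the fold. Ccnd1, cyclin D1, came nearest, at 4.37, 2.31 and 3.39 against 1.08, 1.47 and 1.20. At full depth Mki67 and Top2a were detected together in 3 of 42, 8 of 208 and 8 of 86 member cells (7.14%, 3.85% and 9.30%) and in 13.8%, 2.61% and 2.46% of the other cells. Thinned, the pair was in 1 of 32, 1 of 205 and 1 of 86 member cells and in 11.1%, 1.01% and 0.571% of the other cells.

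Ednrb, the endothelin receptor that these mice lack as a functional protein, was read at 4.13, 3.81 and 3.38 UMIs per 10000 in member cells and 1.48, 2.48 and 1.85 in the other cells. All member values were higher, with log2 ratios of 1.47, 0.62 and 0.87 and a mean of 0.99 ± 0.44 (SD, n = 3), past 2-fold in mouse 1 only. Thinned, Ednrb was detected in 75%, 69.3% and 61.6% of member cells and in 32.0%, 39.9% and 31.4% of the other cells. In the thinned smooth muscle-like cells of mouse 1 Ednrb was detected in 20.8%. Its ligand Edn3 and the second receptor Ednra were in too few cells to be compared.

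Outside these lists, the 20 genes with the largest ratios included Nrn1, neuritin, at 1.26, 0.484 and 0.557 UMIs per 10000 in member cells and 0.226, 0.0494 and 0.0912 in the other cells (2.66 ± 0.35, SD, n = 3). Aspa, the enzyme that splits N-acetylaspartate and is known from myelin-forming cells, had 2.51 ± 0.64. Itih5, a secreted protein that binds hyaluronan-linked matrix, was at 14.4, 8.92 and 10.8 against 3.65, 2.06 and 2.11 (2.15 ± 0.19). For these 3 genes every member value was above every value of the other cells. Col14a1, Mmp2 (a matrix protease), Fkbp10 (a collagen chaperone) and Tnfaip6 had 2.36, 2.20, 1.93 and 1.91. Sostdc1, a secreted antagonist of BMP and Wnt ligands, had 2.17 ± 0.59. Signalling and cytoskeletal genes of the same group were Prex2 (2.31), Ajap1 (2.13), Gulp1 (2.05), Pdlim4 (2.03), Hbegf (a ligand of the EGF receptor, 2.02), Pde8a (2.01), Capg (2.0), Abca8a (1.98), Slc22a23 (1.92) and Arpc1b (1.91).

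The genes with the smallest ratios were read at low levels, and 7 of the 18 lower genes had no UMI in the 42 member cells of mouse 1. Mt3, a metallothionein, was the only 1 of the 18 that was still lower with a pseudocount of 0.1. It was at 0.777, 0.827 and 1.71 UMIs per 10000 in member cells and 5.42, 2.02 and 3.89 in the other cells (−1.75 ± 0.90, SD, n = 3). Chrna5, a nicotinic acetylcholine receptor subunit, had no UMI in the member cells of mouse 1 and 0.0698 and 0.0634 in those of mice 2 and 3, against 0.213, 0.181 and 0.158 in the other cells. Fgfr2, a receptor for fibroblast growth factors, had none, 0.0693 and 0.0805 against 0.214, 0.168 and 0.243, and Mir124a-1hg, the host transcript of a neuronal microRNA, none, 0.122 and 0.155 against 0.284, 0.262 and 0.448. 9330182L06Rik, Gprin3, Bcam and Dand5 likewise had no UMI in the member cells of mouse 1. Dgkg, Rgs7bp, Mpp3, Gmpr, Chst7 and Trpc4 had mean log2 ratios between −2.21 and −1.44, and Gmpr turned to 0.59 when cells were thinned to 3000 UMIs (mouse 2 alone). Among the 185 higher genes 119 were still higher with the pseudocount of 0.1, and none of the 185 lacked UMIs in the member cells of mouse 1. Leaving out mouse 2 took the number of lower genes to 260 and leaving out mouse 3 to 74.

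Depth was compared as a check for doublets, since the RNA of cells that share a droplet adds up. Member cells had medians of 4033, 12442 and 11645 UMIs and the other cells 3686.5, 8948 and 9230, ratios of 1.09, 1.39 and 1.26 and a mean of 1.25 ± 0.149 (SD, n = 3 mice). The ranges overlapped widely, with the 10th to 90th percentiles at 6241.6 to 16656.6 in member cells and 3573 to 15631.4 in the other cells of mouse 2. Listed genes per cell had ratios of 1.05, 1.26 and 1.16. The 20 glial genes together gave medians of 45, 103.5 and 86 UMIs per member cell against 12, 23 and 20 in the other cells. The 20 neuronal genes gave 8.5, 82 and 65.5 UMIs against 50.5, 90 and 89, ratios of 0.168, 0.911 and 0.736. In mice 2 and 3 a median member cell thus held 4.50 and 4.30 times as many glial UMIs as a median other cell and somewhat fewer neuronal UMIs. Mitochondrial shares of the UMIs differed little, with ratios of 0.927, 1.08 and 1.05.

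The rule counts detected genes and so favours deep cells. When all cells were first thinned to 3000 UMIs and the rule was then applied, 14, 51 and 15 cells met it in mice 1, 2 and 3, of 276, 995 and 611 cells. All of them are among the 336, as they must be, because thinning only removes UMIs. Before thinning they had 0.923, 0.899 and 0.912 times the median UMIs of the remaining cells. Their glial level was 3.78, 2.47 and 2.67 times that of the remaining cells and their neuronal level 0.123, 0.460 and 0.497 times. A median cell among them held 5.5, 42 and 42 UMIs of the neuronal genes and a median remaining cell 56, 96.5 and 94. Of the members of the full-depth rule, 18, 154 and 71 count here among the remaining cells, so these ratios do not describe the 336 members. The cells of the study were also capped in the number of genes per cell by the authors, which removes the deepest cells. Scrublet, which simulates doublets from the cells of a library, marked 3 of the 336 member cells and 7 of the 1724 others. Pairs that include a cell of a kind absent from the table, such as the glia that the authors set aside, cannot be found in this way. The part of doublets in these values was not tested further.

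**Figure D3:**
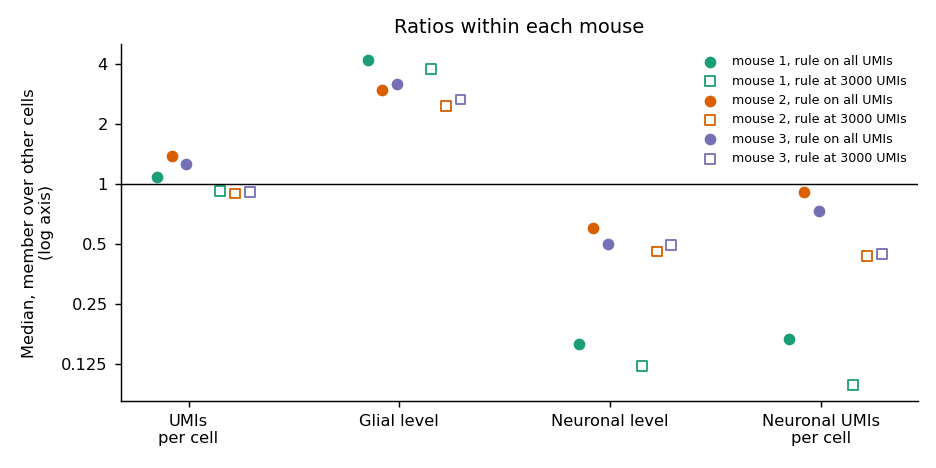
Ratio of the median in member cells to the median in the other cells of the same mouse (log axis), for UMIs per cell, the levels of 20 glial and 20 neuronal genes and the neuronal UMIs per cell. Filled circles use the rule on all UMIs and open squares the rule after thinning every cell to 3000 UMIs, where the ratio of UMIs is below 1 in all mice and the neuronal ratios lie between 0.0982 and 0.497.

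Summed levels separated the groups only in part. The 20 glial genes had medians of 120, 85.7 and 82.7 UMIs per 10000 in member cells and 28.6, 28.9 and 26.1 in the other cells, and the 20 neuronal genes 20.3, 66.3 and 55.6 against 128, 110 and 111. In mice 1, 2 and 3, 29, 68 and 38 member cells had a glial level above the 90th percentile of the other cells. Of the other cells, 81 of 312, 225 of 842 and 171 of 570 reached the 10th percentile of the members. At the neuronal end, 4 of 42, 28 of 208 and 18 of 86 member cells were at or above the median of the other cells, and 4, 0 and 0 were below 5.88 UMIs per 10000, the median of the smooth muscle-like cells.

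Among Sox10-positive cells the levels went along with the number of the 7 genes without a step at the threshold. In mouse 2 the median glial level was 31.0 UMIs per 10000 in the 150 cells with none of the 7, 48.6 with 1, 70.1 with 2, 78.5 with 3, 90.7 with 4, 84.0 with 5 and 101 in the 28 cells with 6. The median neuronal level went the other way, with 111, 104, 86.4, 77.5, 72.4, 64.5 and 49.2. In mouse 3 the neuronal level was 119 with none, 84.0 with 2, 77.6 with 3, 50.7 with 4, 58.4 with 5 and 41.6 with 6. Mouse 1 differed in that most of the difference lay between 1 and 3 genes, with 110, 47.7 and 23.8. Depth also differed with the number of genes. In mouse 2 the median was 9346.5 UMIs with none of the 7 genes, 11646 with 3, 13055 with 4 and 11980.5 with 6. In mouse 3 it was 9569 with none, 8984.5 with 3, 11125.5 with 4 and 12118 with 6, and in mouse 1 it was 3665 with none, 4028.5 with 4 and 3250 in the 7 cells with 5. The part of depth in these differences was not tested.

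**Figure D4:**
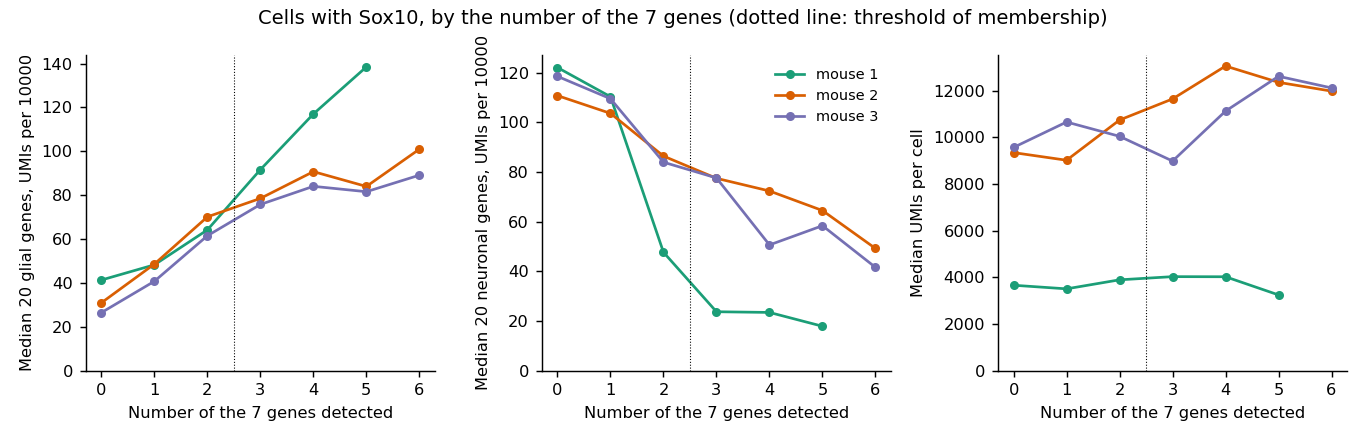
Median glial level, median neuronal level (UMIs per 10000) and median UMIs of Sox10-positive cells against the number of the 7 genes detected, with 1 line per mouse and only points of 5 cells or more. In each mouse the glial medians are higher and the neuronal medians lower at the right end than at 0 genes, though not at every step, and cells on either side of the dotted threshold have neighbouring values in mice 2 and 3.

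Within the member cells, a higher glial level went with a lower neuronal level. Pearson's r over cells was −0.59, −0.33 and −0.49 in mice 1, 2 and 3 (n = 42, 208 and 86 cells, both levels being shares of the same UMIs). The neuronal level also went with depth, at r of 0.46, 0.39 and 0.32. Divided into tertiles by their neuronal level, the member cells of mouse 1 held 0 to 11.6 UMIs per 10000 in the lowest and 44.3 to 162 in the highest, and Nos1, which is not in the neuronal list, was detected in 0 of 14 cells of the lowest (up to 21.4% with so few cells) and in 71.4% of the highest. The median glial level of these tertiles was 133 and 75.3 and the median depth 3053 and 5113 UMIs. In mice 2 and 3 the lowest tertile began at 9.86 and 15.9 UMIs per 10000, and Nos1 was in 55.7% and 55.2% of the lowest, 42.6% and 35.7% of the middle and 65.7% and 65.5% of the highest. Nos1 thus did not follow the neuronal level in these mice. The median depth was 9421 and 8724 UMIs in the lowest tertile and 13968 and 13739 in the highest. The genes whose detection in the 323 thinned member cells went best with the number of neuronal markers, among 3441 outside that list, were Scg2, a granin of secretory granules (mean r of 0.50 over the mice), Nap1l5, Bex2, Smpd3, Gng3, Ahi1, Rab3c, Atp1b1, Pcsk1n and Celf4. Anxa5, Lmo4, Ajap1, Gpm6b and Dip2b went most strongly the other way, with mean r between −0.40 and −0.31. These correlations over sparse counts are descriptions only.

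The member cells did not form a cluster of their own. In a clustering of all 2060 cells into 13 clusters, cluster 1 held 205 members (61.0%), which made up 64.5% of its 318 cells. The cells of this cluster outside the rule were much alike in level, with a median glial level of 83.9 and 76.4 UMIs per 10000 in mice 2 and 3 against 87.5 and 88.2 in its members, and 9 glial markers per thinned cell in both. Their neuronal level was 74.2 and 76.8 against 64.9 and 51, and their median depth 8573 and 8462 UMIs against 12690 and 12107. This cluster was led by genes of the rule, Art3, Pou3f1, Gjc3, Matn2, Kcna1, Sfrp5 and Sfrp1, with Fam198b, Pdlim4 and Gal3st1. The same 7 genes chose the members, which make up most of this cluster, so the lead of these genes is no separate support. When Sox10 and the 7 genes were left out of the variable genes, 202 members (60.1%) still lay together in a cluster of 315 cells. Another 48 members were in cluster 0, which was led by Grp and Cartpt, genes of peptidergic neurons, and 29 in cluster 2, led by Bcl11b, Tox3 and Ccnd1 among others. All but 2 of the 42 members of mouse 1 were in cluster 3, which holds cells of mouse 1 alone. In clusters 8, 9 and 12 there was no member, and clusters 4, 5, 6, 7, 10 and 11 held 1 to 5 each.

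The members of these clusters differed in the neuronal genes they held. Cartpt, itself among the genes that led cluster 0, was detected in 85.4% of the members in cluster 0, 54.6% of those in cluster 1 and 34.5% of those in cluster 2. Tubb3 was in 91.7%, 80.5% and 41.4% and Nos1 in 70.8%, 53.7% and 27.6% of the same members. Ednrb had the opposite order, with 83.3%, 95.1% and 100%. The 40 members in cluster 3 had Tubb3 in 25%, Nos1 in 27.5% and Ednrb in 80%. All these shares are at full depth, and depth had the same order over clusters 0, 1 and 2 as Cartpt, Tubb3 and Nos1. The members of these clusters had medians of 16151, 12690 and 9188 UMIs in mouse 2. In mouse 3 the medians were 13747.5, 12107 and 8715. The part of depth in these shares was not tested.

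**Figure D5:**
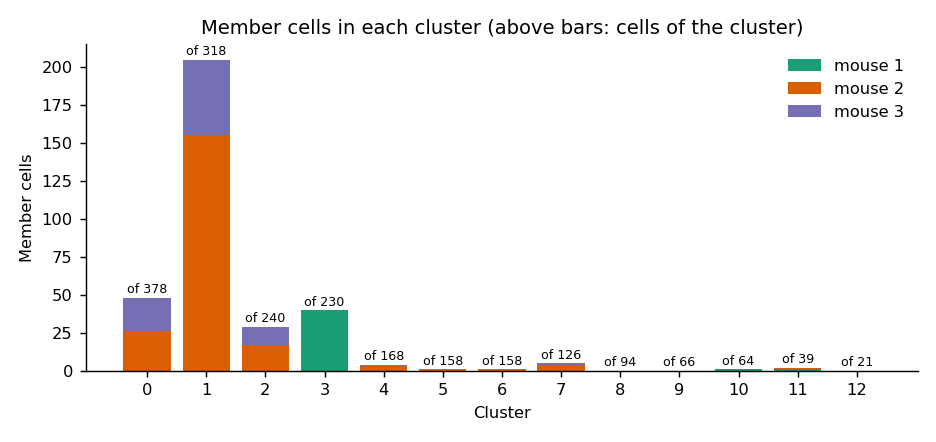
Number of member cells in each of 13 clusters, with the bars divided by mouse and the number of all cells of the cluster above each bar. Cluster 1 holds 205 of the 336 members, all from mice 2 and 3, and cluster 3 holds 40, all from mouse 1.

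The markers of other cell types were read as follows. The mean summed level of 10 smooth muscle markers was 12.7 to 23.7 UMIs per 10000 in member cells over the mice and 15.2 to 79.3 in the other cells, with medians of 6.43, 7.98 and 7.61 against 5.08, 8.01 and 7.40. That of 10 macrophage markers was 1.87, 0.536 and 0.643 in member cells and 0.677, 0.328 and 0.433 in the other cells, higher in members of each mouse, with a median of 0 in every group and no UMI of Aif1 in the member cells of mouse 1 or of Cd68 in those of mouse 3. Endothelial markers were at 0.162 to 0.182, pericyte markers at 0.513 to 1.42, markers of interstitial cells of Cajal at 0.327 to 0.467, lymphocyte markers at 0.0448 to 0.155, and mesothelial, epithelial and melanocyte markers at 0 to 0.162. Cdh5, Kit, Msln and Epcam had no UMI in the member cells of mouse 1.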

How the data were processed

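Cells were sorted from 3 mice and sequenced with 1 library per mouse. The authors deposited 1 table of 33353 genes by 2060 cells, after removing non-neuronal cells, in the natural log of 1 plus UMIs per 10000. Cell Ranger and mm10 come from the submitters' processing notes (version not given in the sources used here). The smallest value of a cell is 1 UMI, and 100% of 6435281 values gave whole UMIs within 1e-06. Totals were 1526256, 10358118 and 6412495 UMIs. Levels are means over cells of UMIs per 10000, and ratios are log2(level + 0.01) against all other cells of the same mouse, for genes in at least 5% of the cells of each mouse. Members were chosen from these values, so no test was run, and 3 mice could not reach below a two-sided exact p of 0.25. That the mice are separate animals comes from the study's methods. Thinning to 3000 UMIs left out 178 cells, 13 of them members. Clusters came from Seurat 5.3.0 in R 4.3.3 (2000 variable genes, 20 components, resolution 0.5), and doublet calls from Scrublet in scanpy 1.11.5 (expected 6%, within each library). Scrublet marked 10 of 2060 cells, under 0.5%, and is not taken as having worked. Doublets were left in. A cluster was called smooth muscle-like from listed markers. Scripts ran in Python 3.11.15 and were tested on simulated data. Gene positions are from GENCODE M21 (GRCm38). The members and gene lists were chosen with earlier results of these data known. Genes named are those of the rule, Ednrb, list examples with the largest and smallest ratios, the 20 largest and 15 smallest ratios among called genes, and the 10 best and 5 worst correlations. A few further list genes (S100b, Tubb3, Nos1, Chat and others) were named after their values were seen. Some genes of the lists count in their totals but are not reported here by name. Alternatives changed the rule, the cells compared, depth, filter, pseudocount, fold, clustering and the mice used.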

Additional observations from a re-analysis of the deposited data

How the results depend on the processing

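Against 336 members, 515 cells were counted at 2 or more of the 7 genes, 213 at 4 or more and 80 at 3000 UMIs, and 128 to 294 with 1 mouse left out, the lowest without mouse 2. The 185 higher genes became 411 at 1.5-fold, 119 with a pseudocount of 0.1, 521 after thinning and 231 to 250 with 1 mouse left out. The count of 18 lower genes was unstable. It was 72 at 4 or more of the 7 genes, 47 with Sox10 at 2 UMIs, 65 against cells without Sox10, 80 without the filter, 296 at 1.5-fold, 1 with a pseudocount of 0.1, 874 after thinning and 47 to 260 with 1 mouse left out. The thinned fit uses mouse 2 alone, with 51 members and 7596 genes compared, the only library with 20 members or more, and in it Gmpr (0.59) and Tcf7l1 (−2.95) were reversed. Of the neuronal list 6 were lower after thinning and 8 at 1.5-fold, against 0. Between 11 and 14 glial genes were higher under the alternatives run. The depth ratio was 1.09 against cells of like depth, against 1.25, and 1.18 to 1.33 with 1 mouse left out. Without thinning the median number of neuronal markers, averaged over the mice, was 11.2, against 8.33. Scrublet marked 0% of members at 4 or more of the 7 genes, against 0.893%. At resolution 1.0 the top cluster held 34.5% of members, against 61.0%. Against cells outside the smooth muscle-like cluster, an alternative chosen after seeing the data, 196 genes were higher and 22 lower. Of 76 named genes, 44 moved by over 1 SD between mice after thinning and 2 reversed, 42 moved against cells without Sox10, 25 with a pseudocount of 0.1 and 14 or fewer under the other alternatives, of which the fold, the filter and leaving out a mouse could not move a ratio so far. Low depth limits mouse 1 most, and intervals cover counting error only. No paired analysis was possible because no result comes from a test, although every ratio is taken within a mouse.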
